A study of Rattus norvegicus with 4 samples.

Results

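The vascular endothelial growth factor (VEGF) family was followed here as 9 rat genes: the ligand genes Vegfa, Vegfb, Vegfc, Vegfd (older symbol Figf) and Pgf, the receptor tyrosine kinase genes Kdr (also called VEGFR2) and Flt1 (also called VEGFR1), and the co-receptor genes Nrp1 and Nrp2. Their probes were found through the RefSeq accession that the scanner files give for each probe. All 9 genes had a probe, 12 of the 41012 probes in all, against 8893 genes that could be named on the array. The genes were chosen by their roles with their log2 differences between MAX vector and empty vector on these arrays already known, so every comparison of them below is a description and not a test. The cells were PC12, an established rat line from a pheochromocytoma, a tumour of the adrenal medulla that secretes catecholamines. The line is known for having lost functional MAX, through which MYC proteins bind DNA. The MAX vector group was transfected by nucleofection with a plasmid that codes for MAX, and the empty vector group received the vector alone. Both groups went through drug selection with E418, as the labels spell it, and were grown in the same medium with fetal calf and horse serum. Per the series' design, each group came from 1 transfected line harvested at passages 8 and 13, giving 2 one-colour arrays per group. Which array holds which passage is not stated. P-values therefore reflect how far passages of the same line differ, and not how far independent transfections do.

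The share of probes well above background ran from 64.4% to 71.5% over the arrays, with 0 saturated spots. The number of arrays, 4, limits the precision. Slide 1 held 3 arrays, MAX vector replicate 2 and both empty vector arrays, and MAX vector replicate 1 was alone on another slide. Levels are log2 processed signals minus the array's 75th percentile, so that a value of 0 is as bright as that percentile. The lowest level called well above background was -5.65 and -6.04 on the MAX vector arrays and -6.53 and -6.07 on the empty vector arrays. The Max probe was well above background on 0 arrays. Whether it can detect RNA from the plasmid was not analysed, so it does not check the labels. Of 17 chromaffin markers, 15 had a named probe and 11 of these were well above background on all 4 arrays, while Dbh was well above background on 1 MAX vector array and 2 empty vector arrays (log2 fold change -1.41 ± 0.89, adjusted p = 0.51 in limma). Th, the rate-limiting enzyme gene of catecholamine synthesis, rose by 2.15 ± 0.11 (adjusted p = 0.0206), Ddc, the next enzyme gene, fell by 1.08 ± 0.08 (adjusted p = 0.0386), and Chga had -0.08 ± 0.42 (adjusted p = 0.947, all in limma). Both calls were lost without any 1 empty vector array or without MAX vector replicate 1, and that of Ddc also without MAX vector replicate 2, with adjusted p from 0.0623 to 0.383. The summed signal of the 15 chromaffin markers was 8450 and 9410 in the MAX vector group, against 16100 and 14200 in the empty vector group. Ddc made up 4570 and 5120 of these units with the MAX vector, against 11400 and 10000 with the empty vector. Of the 15 markers 3 had a log2 fold change above 0 and 12 below 0, with groups that did not overlap in 1 higher and 8 lower. Among all genes tested the groups did not overlap in 24.3% higher and 26.0% lower. Of 16 endothelial markers, 7 had a named probe, while Cdh5, Tek and Vwf had no probe named here. Of the 7, Pecam1, Cldn5, Emcn and Icam2 were above background on 0 arrays. The other 3, Esam, Erg and Sox18, were well above background on all 4 arrays. Sox18 had 119 and 147 units with the MAX vector, against 160 and 153 with the empty vector, most of the sum that follows. The summed endothelial signal was 177 and 196 with the MAX vector, against 236 and 195 with the empty vector. Of 9 macrophage markers 7 had a named probe, and their summed signal was 5370 and 5910 with the MAX vector, against 3430 and 3440 with the empty vector. Most of that sum came from Cd14. Aif1 and Itgam were well above background on 0 arrays. Of the 5 tested, 4 had a log2 fold change above 0 and 1 below 0. Lyz2 had 1.32 ± 0.15, Cd14 0.82 ± 0.12, Cd68 0.43 ± 0.30, Csf1r 0.055 ± 0.53 and Adgre1 -0.73 ± 0.61. Their adjusted p ran from 0.067 to 0.969 in limma. Of 9 fibroblast markers 7 had a named probe, with sums of 81400 and 97900 with the MAX vector, against 92000 and 88700 with the empty vector, nearly all of it Col3a1. Of the other fibroblast markers, Lum had a log2 fold change of -1.19 ± 0.27, Thy1 -0.62 ± 0.11 and Dcn 0.75 ± 0.13 (adjusted p = 0.182, 0.134 and 0.127 in limma). Col1a2 had -0.16 ± 0.09 and Pdpn -0.49 ± 0.52 (adjusted p = 0.471 and 0.685 in limma), and Fap was well above background on 0 arrays. Lum, Thy1, Dcn and Col1a2 had groups that did not overlap, as was the case for 50.3% of all genes tested. The part of these markers in the results below was not tested. In RNA of whole cultures, fewer cells that express a gene and less RNA per cell cannot be told apart.

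VEGF ligands are secreted dimers that bind receptor tyrosine kinases, classically on endothelial cells, where KDR carries most of the signal for growth and migration. FLT1 binds VEGFA, VEGFB and PlGF (the product of Pgf) and can act as a decoy, and VEGFC and VEGFD act mainly through the related receptor FLT4 on lymphatic endothelium. Neuropilins bind VEGF and also class 3 semaphorins, which guide growing axons and neural crest cells. Vegfa is a classical target of the hypoxia-inducible factors (HIF), and the series names HIF1α and HIF2α in chromaffin cells as its theme. Highly vascular tumours such as pheochromocytoma are known to make VEGFA.

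MAX-containing dimers bind the E-box CACGTG, HIF dimers bind cores that read ACGTG or GCGTG, and SP family factors bind the GC box GGGCGG. Promoter windows from 250 bases before to 50 after an annotated start were taken from RefSeq (build GRCr8) and read on both strands for these letters. ACGTG lies within CACGTG, so every E-box also counts as an ACGTG. All 9 genes had a window. CACGTG was found in 0 of the 9 windows, against 6.42% of 33469 windows in the table. ACGTG was found in 0 of 9 (19.3% of all windows), GCGTG in 6 of 9 (29.7%) and GGGCGG in 6 of 9 (33.1%). The share of G and C in the family's windows ran from 40.7% (Vegfd) to 73.7% (Vegfb). The windows compared were not matched for that share. Vegfa had a further window at an internal start with none of the 4 motifs. A match is a description of letters and not a bound site, and no match speaks only for these windows, since the known HIF site of Vegfa lies farther upstream. The stretches before the outermost annotated start are shown for 3 genes whose signals were higher on both MAX vector arrays, Kdr because its difference was the largest of the 7 genes above background in both groups, Vegfa as the classical HIF target and Pgf as a ligand with both kinds of motif. Capitals mark GCGTG and GGGCGG on either strand, so CACGC and CCGCCC also appear. The Kdr stretch is chr14:32571813-32572030 on the plus strand, the Vegfa stretch is chr9:22452604-22452853 on the plus strand and the Pgf stretch is chr6:110557748-110557997 on the minus strand.
Kdr: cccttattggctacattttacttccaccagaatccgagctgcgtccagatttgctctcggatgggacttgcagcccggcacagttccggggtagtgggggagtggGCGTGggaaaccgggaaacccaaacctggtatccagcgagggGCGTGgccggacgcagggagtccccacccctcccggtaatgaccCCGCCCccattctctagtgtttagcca
Vegfa: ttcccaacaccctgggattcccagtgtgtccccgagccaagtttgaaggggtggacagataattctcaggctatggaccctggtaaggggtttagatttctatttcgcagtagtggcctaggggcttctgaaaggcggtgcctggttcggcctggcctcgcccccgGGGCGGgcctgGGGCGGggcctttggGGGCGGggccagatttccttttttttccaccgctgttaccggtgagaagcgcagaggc
Pgf: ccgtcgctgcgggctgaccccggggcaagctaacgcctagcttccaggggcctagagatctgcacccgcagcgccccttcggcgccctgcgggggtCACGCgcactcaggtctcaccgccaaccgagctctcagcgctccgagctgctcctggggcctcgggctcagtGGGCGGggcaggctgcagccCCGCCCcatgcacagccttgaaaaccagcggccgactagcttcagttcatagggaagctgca
In Kdr the GCGTG cores begin at -145 and -103 relative to the window's annotated start, and the GC box begins at -59. In Vegfa the GC boxes begin at -84, -73 and -58. In Pgf the single GCGTG core begins at -154 and the GC boxes begin at -82 and -62. Nrp2, lower with MAX in the values below, also holds 2 GCGTG cores, so this motif occurs in windows of genes on both sides.

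Of the ligands, Vegfa and Pgf were slightly higher with the MAX vector and Vegfd was lower. The Vegfb groups were nearly level at their edges by the brighter probe and overlapped by the other, and Vegfc was near background. Vegfa, the main angiogenic ligand, had levels of -0.13 and -0.17 on the MAX vector arrays, against -0.56 and -0.63 on the empty vector arrays. Both MAX vector arrays were above both empty vector arrays. The log2 fold change was 0.45 ± 0.09 (SE of limma's fit, n = 2 arrays per group), or 1.36-fold. This probe, A_43_P15572, is printed as 10 spots on each array, of which 1 carried an outlier flag on an empty vector array. Over the remaining spots, levels ran from -0.21 to 0.03 on MAX vector replicate 1 and from -0.27 to -0.07 on MAX vector replicate 2. They ran from -0.65 to -0.48 on empty vector replicate 1 and from -0.75 to -0.36 on empty vector replicate 2, so every MAX vector spot was brighter than every empty vector spot. Spots of 1 array share an RNA sample and are no replicates of a condition. The SD over spots was 0.06 to 0.12. The other Vegfa probe had -0.90 and -0.96 with the MAX vector, against -1.15 and -1.31 with the empty vector, a difference of 0.30 in the same direction. On the 3 arrays of slide 1 the log2 fold change of Vegfa was 0.43.

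**Figure D1:**
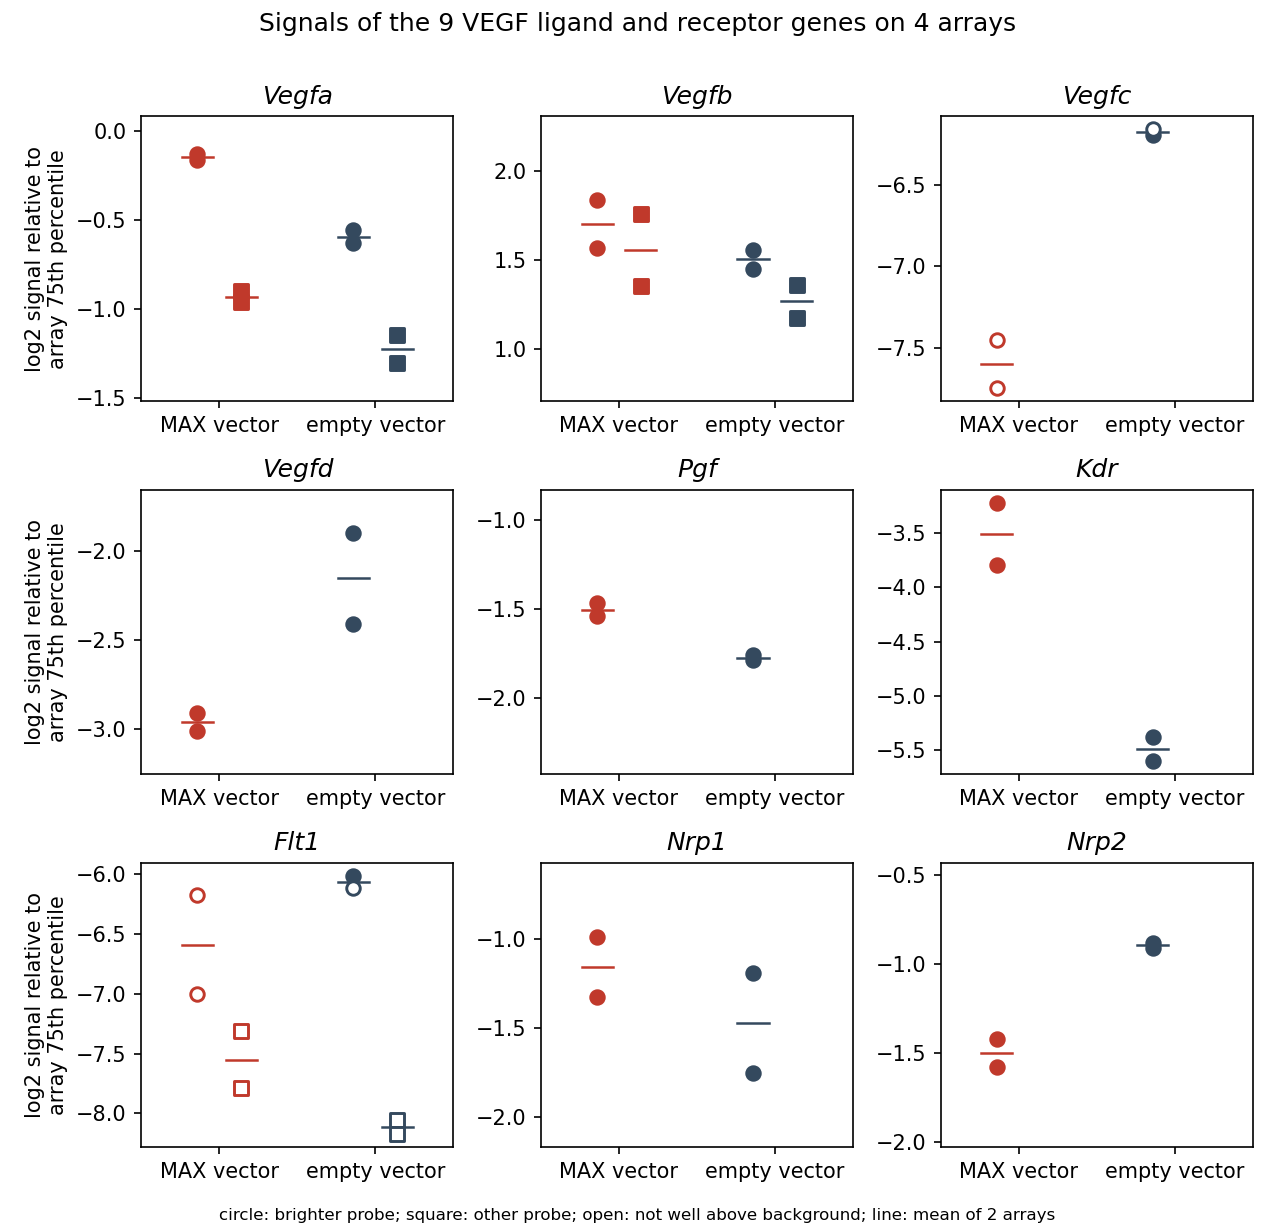
Levels of the 9 genes on each array (log2 processed signal relative to the array's 75th percentile), with MAX vector arrays left and empty vector arrays right in each panel. Circles are the brighter probe, squares the other probe, open symbols are not well above background and lines are means of 2 arrays. Kdr lies between -3.80 and -3.22 with the MAX vector and between -5.60 and -5.38 with the empty vector, while Nrp1 overlaps between groups.

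Pgf, which encodes placental growth factor, had -1.54 and -1.47 with the MAX vector, against -1.79 and -1.76 with the empty vector. The groups did not overlap, and the log2 fold change was 0.27 ± 0.09, or 1.21-fold. With the normexp background correction it was 0.10. Vegfb, a ligand of FLT1 known for roles in heart and neurons, had 1.84 and 1.57 with the MAX vector by its brighter probe, against 1.45 and 1.56 with the empty vector. MAX vector replicate 2 and empty vector replicate 2 were almost level there. The log2 fold change was 0.20 ± 0.13, and on slide 1 alone it was 0.06. It was 0.34 without MAX vector replicate 2. The other Vegfb probe had 1.76 and 1.35, against 1.17 and 1.36, so by that probe the groups overlapped.

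Vegfd, a lymphangiogenic ligand, had -3.01 and -2.91 with the MAX vector, against -2.41 and -1.90 with the empty vector. Both MAX vector arrays were below both empty vector arrays, and the empty vector arrays lay 0.51 apart. The log2 fold change was -0.81 ± 0.20, or 1.75-fold lower. It was -1.06 without empty vector replicate 1 and -0.55 without empty vector replicate 2. Vegfc, the other lymphangiogenic ligand, was well above background on 0 of 2 MAX vector arrays and 1 of 2 empty vector arrays. Its processed signals were 2.74 and 3.79 units with the MAX vector, against 9.53 and 8.54 units with the empty vector. They were lower on both MAX vector arrays, but no fold is given, because the empty vector mean of -6.18 lay below the lowest level that could be called in the MAX vector group (a mean of -5.84).

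Among receptors and co-receptors, Kdr was higher with the MAX vector, Nrp2 was lower, the Nrp1 groups overlapped, and Flt1 was near background. Kdr, the main signalling receptor, had levels of -3.80 and -3.22 on the MAX vector arrays, against -5.38 and -5.60 on the empty vector arrays. All 4 values were well above background, and the groups lay apart. In processed signal these were 42.4 and 71.3 units, against 16.8 and 12.6 units. The log2 fold change was 1.98 ± 0.23, or 3.94-fold, and it rests on 1 probe printed as 1 spot. It was 2.27 on slide 1 alone, 1.69 without MAX vector replicate 2, 2.09 without empty vector replicate 1 and 1.87 without empty vector replicate 2. With normexp, which here adds 50 signal units and draws the folds of dim probes toward 1, it was 0.62.

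Flt1, the receptor that can act as a decoy, had 2 probes near background. By the brighter probe the levels were -7.00 and -6.17 with the MAX vector, against -6.01 and -6.12 with the empty vector, and 1 of the 4 values, on an empty vector array, was well above background. The other probe was above background on 0 arrays, with -7.79 and -7.31 against -8.06 and -8.17. The probes thus differed in sign, and no fold is given. For Vegfc and Flt1 these signals set no direction.

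Nrp2, a co-receptor for VEGFC and for the semaphorin SEMA3F, had -1.42 and -1.58 with the MAX vector, against -0.91 and -0.88 with the empty vector. The MAX vector arrays were both lower, and the log2 fold change was -0.61 ± 0.10, or 1.52-fold lower. It lay between -0.69 and -0.53 with any 1 array left out. Nrp1, a co-receptor for VEGFA and for the semaphorin SEMA3A, had -0.99 and -1.32 with the MAX vector, against -1.19 and -1.75 with the empty vector. The groups overlapped, and the log2 fold change of 0.32 ± 0.25 was of the size of the gap between arrays of a group, 0.34 with the MAX vector and 0.56 with the empty vector. It was 0.60 without empty vector replicate 1, 0.04 without empty vector replicate 2 and 0.15 without MAX vector replicate 1.

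**Figure D2:**
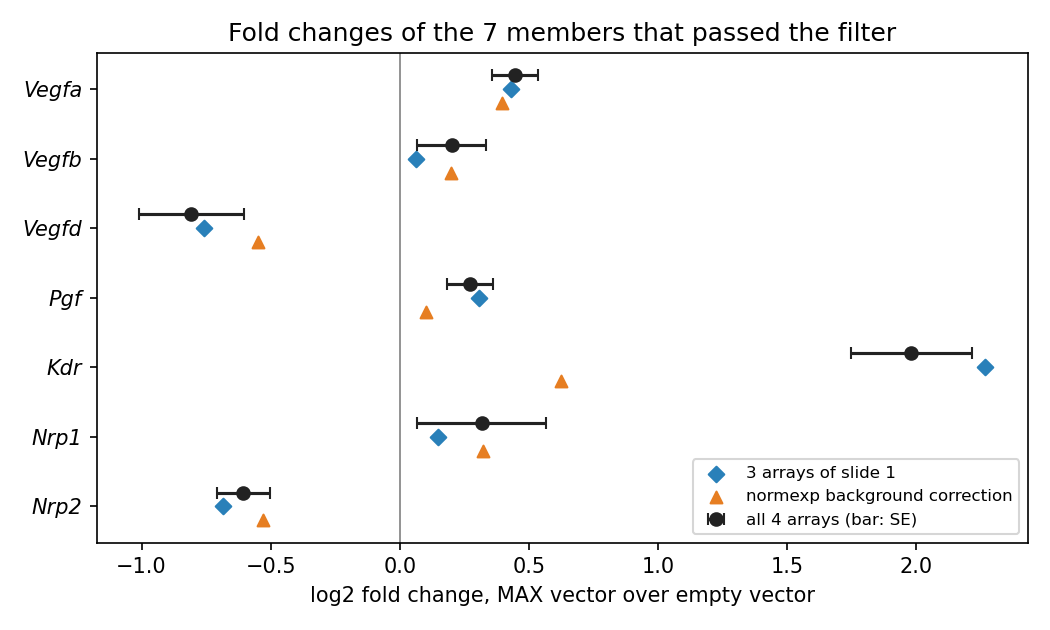
Log2 fold change, MAX vector over empty vector, of the 7 genes that passed the filter on dim probes. Circles with SE bars are from all 4 arrays, diamonds from the 3 arrays of slide 1 and triangles from normexp-corrected signals. Kdr is at 1.98, 2.27 and 0.62 in these, and Nrp2 is at -0.61, -0.69 and -0.53.

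The family was read against all genes. Probes called well above background on 2 or more of the 4 arrays were tested, by the brightest probe of each gene, or of each accession where no symbol was matched. This left 25355 entries, called genes here, of which 6311 had a symbol and 19044 did not, so several entries without one may stand for the same gene. Of the 9 family members 7 were tested (all but Vegfc and Flt1). In limma's fit with Benjamini-Hochberg adjustment, 213 genes (0.84%) passed an adjusted p of 0.05, 0.576% higher and 0.264% lower with MAX, and 0 of the 7 members did. Among the 6311 with a symbol 1.43% passed. At an unadjusted p under 0.05 there were 5 members and 16.1% of all genes (18.8% of those with a symbol). The groups did not overlap in 6 of the 7, 4 higher with MAX (Vegfa, Vegfb, Pgf and Kdr) and 2 lower (Vegfd and Nrp2). Among all genes tested the groups did not overlap in 50.3%, with 24.3% higher and 26.0% lower, and in 55.1% of those with a symbol. Kdr was the 1 member past a 2-fold difference, which 3.42% of all genes passed (1.64% upward, and 4.48% of those with a symbol in either direction). Kdr passed the adjusted threshold in limma under 5 of 16 alternatives: normexp, where 3.15% of all genes passed, an intensity trend (3.77%), quantile normalization (1.16%), median centring (2.27%) and testing only probes well above background on all 4 arrays (2.27%). Nrp2 passed under normexp and the intensity trend. Since the contrast was known when the genes were chosen, nothing is read from these counts.

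**Figure D3:**
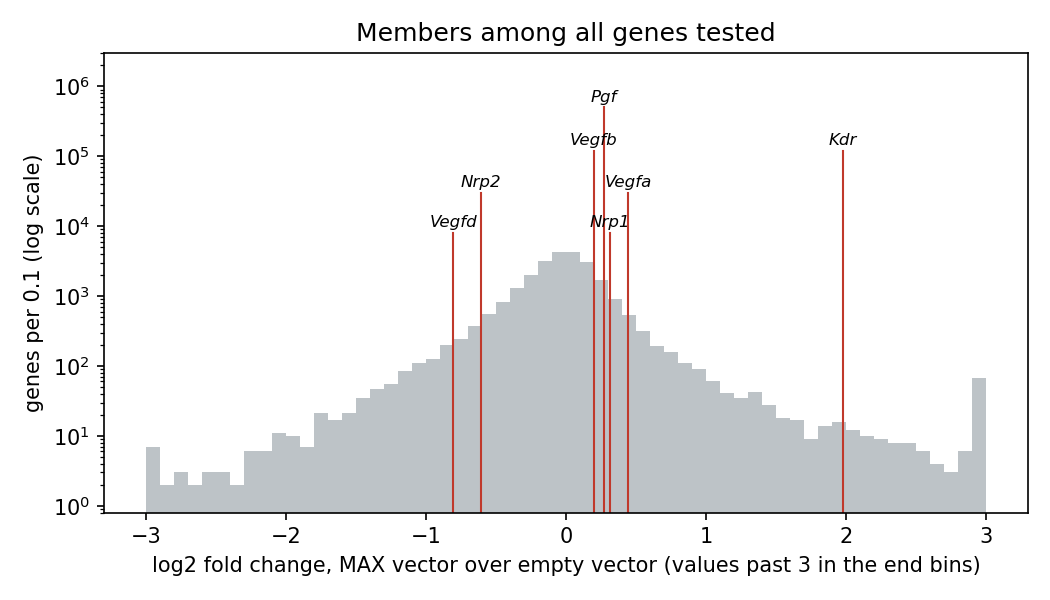
Distribution of log2 fold changes, MAX vector over empty vector, over the 25355 entries tested, named or by accession (grey bars, number per bin on a log scale), with red lines at the 7 members tested. Kdr at 1.98 lies in the upper tail, and the other 6 lie between -0.81 and 0.45.

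Genes that work with the family were taken from 6 lists, without the 9 members. Together the lists named 187 genes, of which 129 had a named probe and 116 were tested. In limma's fit 3 of the 116 rose (Spp1, Mmp10 and Ets1) and 2 fell (Vcam1 and Sema3a), 4.31% against 0.84% of all genes (0.576% higher, 0.264% lower) and 1.43% of those with a symbol. At an unadjusted p under 0.05 there were 39 of the 116 (33.6%), against 16.1% of all genes and 18.8% of those with a symbol. The median log2 fold change over the 116 was 0.00, against -0.02 over all genes. The lists were drawn up with results of these data known, so the counts are no independent evidence.

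Of receptor partners and other receptors, 9 of 21 listed genes were tested and 0 passed in limma, with 4 at an unadjusted p under 0.05 (44.4%, against 16.1% of all genes). Flt4, the receptor of VEGFC and VEGFD, had -2.10 and -2.31 with the MAX vector, against -1.68 and -1.93 with the empty vector. The difference was -0.40 ± 0.14 on the log2 scale (adjusted p = 0.31 in limma). The listed plexin genes, Plxna1 and Plxnd1 among them, which encode signalling partners of neuropilins, had no probe named here. Of 7 class 3 semaphorins, 1 had a probe named here, Sema3a, and the others, Sema3c and Sema3f among them, had none. Sema3a encodes a repulsive guidance protein that competes with VEGFA for neuropilin-1. Its levels were -2.38 and -2.49 with the MAX vector, against -1.35 and -1.29 with the empty vector, and the groups lay far apart. Its log2 fold change was -1.11 ± 0.10, with an adjusted p of 0.0443 in limma. That call was lost under 9 of 16 alternatives, among them each fit without 1 of the 4 arrays. With all 4 arrays it was lost under quantile normalization (adjusted p = 0.0516 in limma), no filter on dim probes (0.171) and the replicate block (0.141). The call was also lost with the slide as a block, which gives the same log2 fold change as slide 1 alone. The log2 fold change stayed between -1.17 and -1.05 with any 1 array left out. Within slide 1 it was -1.17 (adjusted p = 0.0985 with limma).

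Among regulators of VEGF transcription and RNA, 18 of 29 genes were tested, with 5 at an unadjusted p under 0.05 in limma (27.8%, against 16.1% of all genes). Of the 18, 1 rose (5.56%, against 0.84% of all genes called) and 0 fell. That gene was Ets1, which encodes an ETS transcription factor known for activating receptor promoters in endothelial cells. Ets1 had -0.87 and -0.76 with the MAX vector, against -2.75 and -2.78 with the empty vector. The arrays of a group were close together, and Ets1 was 3.86-fold higher (1.95 ± 0.09, adjusted p = 0.02 in limma). The call was lost within slide 1 (adjusted p = 0.0626 in limma), without empty vector replicate 1 (1.96, adjusted p = 0.277) and without empty vector replicate 2 (1.93, adjusted p = 0.249). Slide 1 alone is the fit without MAX vector replicate 1. The ETS core CCGGAA, searched after the value of Ets1 was seen, occurred in 1 of the 9 windows, against 15.0% of all windows. That window was the one of Kdr, with matches at -167 and 32 relative to its start. Because the motif was picked after the values, nothing is read from this match, and whether ETS1 acts on Kdr here was not tested. Hif1a had a log2 fold change of 0.27 ± 0.09 and Epas1, which encodes HIF2α, -0.81 ± 0.22 (adjusted p = 0.276 and 0.233 in limma). Their partner Arnt had -0.04 ± 0.12 and Vhl, whose product marks HIF subunits for destruction, 0.12 ± 0.09 (adjusted p = 0.902 and 0.556). The prolyl hydroxylase gene Egln3 had -0.84 ± 0.13 (adjusted p = 0.11). Zfp36l1, which encodes a protein known to destabilise Vegfa mRNA, had -0.63 ± 0.10 (adjusted p = 0.116). Egln3 and Zfp36l1 passed under normexp and the intensity trend. Elavl1 had no probe named here.

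**Figure D4:**
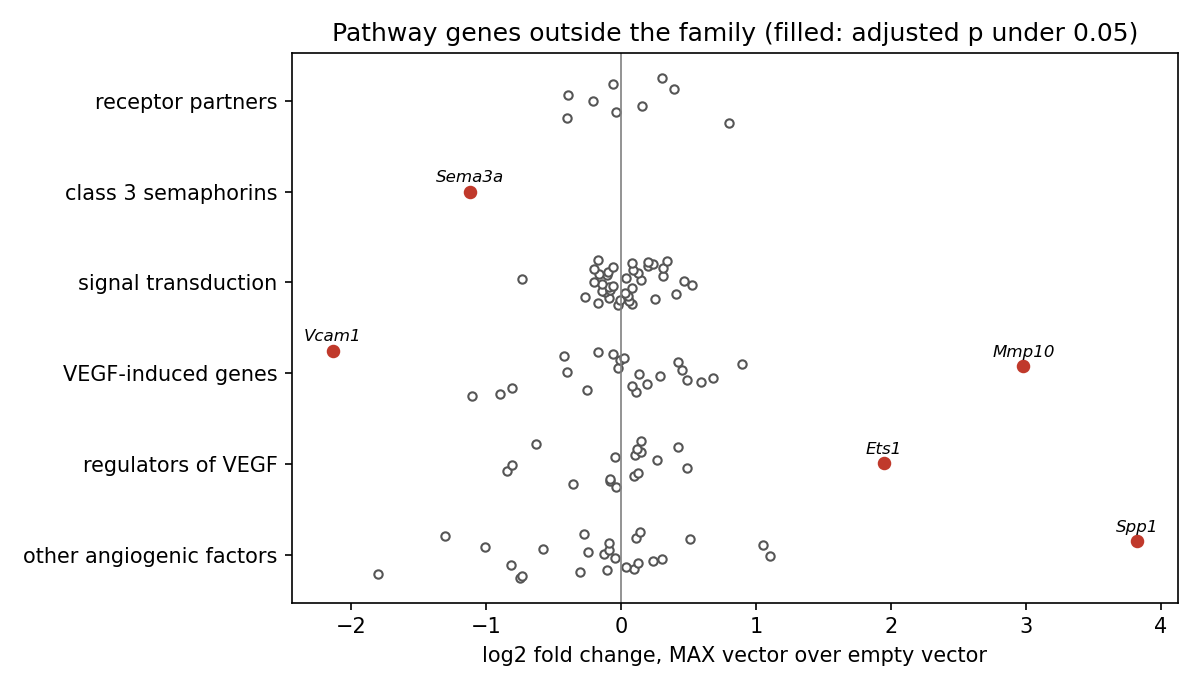
Log2 fold change, MAX vector over empty vector, of each tested gene of the 6 pathway lists, the 9 family members left out. Filled points passed an adjusted p of 0.05 in limma. Spp1 at 3.83, Mmp10 at 2.98 and Ets1 at 1.95 were higher and Vcam1 at -2.13 and Sema3a at -1.11 lower, and the 39 signal transduction genes lie between -0.73 (Pla2g4a) and 0.52 (Nos3).

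The signal transduction genes downstream of the receptors were tested in 39 of 54 cases. In limma 0 passed (7 at an unadjusted p under 0.05, or 17.9%, near the 16.1% of all genes), with 20 above 0, 19 below 0 and a median of 0.03. Of 2 well-known members, named after their values were seen, Akt1, a survival kinase gene, had -0.02 ± 0.09 and Plcg1, which encodes the phospholipase that KDR activates, had 0.04 ± 0.09. Of genes that VEGF is known to induce in endothelial cells, 24 of 35 were tested, with 1 higher, 1 lower and a median of 0.05. The share called was 8.33%, against 0.84% of all genes. At an unadjusted p under 0.05 in limma there were 9 (37.5%, against 16.1% of all genes). Mmp10, a matrix metalloproteinase gene, had -2.32 and -2.49 with the MAX vector, against -5.25 and -5.53 with the empty vector. It was 7.9-fold higher (2.98 ± 0.14, adjusted p = 0.02 in limma). Vcam1, a leukocyte adhesion molecule gene, had -3.97 and -3.62 with the MAX vector, against -1.60 and -1.72 with the empty vector. Its log2 fold change was -2.13 ± 0.16, with an adjusted p of 0.0371 in limma. Leaving out empty vector replicate 1 ended both calls (adjusted p = 0.247 for Mmp10 and 0.354 for Vcam1), as did leaving out empty vector replicate 2 (0.243 and 0.301) or MAX vector replicate 1, which leaves slide 1 alone (0.0635 for each). Normexp correction gave 1.32 for Mmp10 and -1.34 for Vcam1 (log2 fold changes).

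Of other angiogenic and antiangiogenic factors and receptors, 26 of 42 were tested, with 1 higher, 0 lower and a median of -0.09. The share called was 3.85%, against 0.84% of all genes. At an unadjusted p under 0.05 in limma there were 13 of the 26, against 16.1% of all genes. Groups that did not overlap were found in 8 higher and 12 lower, against 24.3% and 26.0% of all genes tested. Spp1, the gene of osteopontin, a secreted matrix protein, had 3.68 and 3.44 with the MAX vector, against -0.28 and -0.26 with the empty vector. It was 14.2-fold higher (3.83 ± 0.12, adjusted p = 0.016 in limma). The call held on slide 1 and was lost without empty vector replicate 1 (adjusted p = 0.247) or 2 (adjusted p = 0.227). Angpt1, which encodes a ligand that stabilises vessels, had -0.73 ± 0.13, and Pdgfa, of a growth factor family related to VEGF, had -0.25 ± 0.09. Pdgfrb, a receptor gene of vessel-supporting cells, had -0.58 ± 0.15, and Thbs1, which encodes an inhibitor of angiogenesis, had -0.28 ± 0.09. These 4 genes had adjusted p between 0.127 and 0.323 in limma, and Angpt1 passed under normexp and the intensity trend. Angpt2, Pdgfb and Pdgfra had no probe named here.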

How the data were processed

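Total RNA of 4 samples was labelled with Cy3 and hybridised to one-colour Agilent rat arrays. The deposited spot intensity was written by Feature Extraction 10.7.3.1 with annotation build rn4, per the file headers (10.7 per the submitters' processing notes). That software subtracts background and detrends each array by itself, and no scaling across arrays had been applied. A deposited table holds log2 values, with scale, centring and direction unstated. Differences between columns matched those of the scanner signals (r = 1), so scale and direction are known. The baseline of each probe is unknown, and column medians were -0.005 and -0.006 for the MAX vector arrays and -0.033 and -0.011 for the empty vector arrays.

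Spots with an outlier flag (89 to 140 an array) were left out, spots of the same probe were averaged as log2 processed signal, and the array's 75th percentile over probes was subtracted. Symbols came from RefSeq accessions without version, matched to the RefSeq gene table of GRCr8: 10759 of 41012 probes were named. The test was limma's (version 3.58.1, R 4.3.3; lmFit and eBayes; 3.94 degrees of freedom in total), Benjamini-Hochberg adjusted over 25355 genes, and ± is the SE. Of these steps only the fit and the adjustment were run on simulated data, with shifts larger than any difference of the members. Nothing about the members is read from that run. The normexp alternative used the median spot signal, since the files hold no mean signal. Slide 1 holds 3 arrays and slide 2 holds MAX vector replicate 1, and scans follow the slides. The members, lists and alternatives were chosen with earlier results of these data known. By rule, every member, up to 4 passing genes per list and direction and 20 set genes were named. Coordinates are those of RefSeq promoter windows.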

Additional observations from a re-analysis of the deposited data

How the results depend on the processing

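The counts of calls, the members' median and the log2 fold changes of 27 named genes were recomputed under 16 alternatives. Those of Akt1, Plcg1, Dbh, Chga, Lum, Thy1, Dcn, Angptl4, Adm, Ptn, Jag1 and Eng were not. Neither were those of Col1a2, Pdpn, Lyz2, Cd14, Cd68, Csf1r and Adgre1. The count of 213 genes called became 799 with normexp, 575 with median centring, 519 with only probes well above background on all 4 arrays, 956 with an intensity trend, 10 with the slide as a block or on slide 1 alone, and 0 with no filter on dim probes (limma, 4044 at an unadjusted p under 0.05) or with the replicate block (3890). With 1 array left out it ran from 0 (without empty vector replicate 1 or 2) to 167. The count of 0 members called became 2 with normexp or the intensity trend (Kdr and Nrp2) and 1 with quantile normalization, median centring or the filter on all 4 arrays (Kdr), and was 0 with the replicate block and with any 1 array left out. The median measured difference over all 9 members, which counts Vegfc and Flt1 although no fold can be given for them, was 0.20. It was 0.10 with normexp and 0.063 with the slide as a block or on slide 1 alone, and ran from 0.035 to 0.236 with 1 array left out. Of the pathway genes, 5 were called, against 19 with normexp, 9 with median centring, 10 with the filter on all 4 arrays, 18 with the intensity trend, 1 with the slide as a block or on slide 1 alone, 0 with no filter on dim probes and 0 with the replicate block, and 0 to 4 with 1 array left out. Arnt (-0.036) was 0.075 with the slide as a block or on slide 1 alone and ran from -0.147 to 0.075 with 1 array left out, and Vhl (0.12) was -0.027 with normexp. Where 1 array was left out of a group, the lone array was taken to vary like the other group. The causes of these changes were not tested. Some alternatives also bring a smaller number of arrays or genes by themselves. The replicate numbers do not pair the arrays by the labels, and deviations of same-numbered arrays had a correlation of -0.018 over genes. Kdr, Vegfa, Vegfb, Pgf, Nrp1, Vegfd and Nrp2 kept their sign under all 16 alternatives. These are not 16 separate checks. The filters on dim probes, the intensity trend and the replicate block leave these log2 fold changes as they were. The slide as a block, slide 1 alone and the fit without MAX vector replicate 1 give the same value. Where groups do not overlap, leaving out 1 array cannot change the sign. Depth of signal limits Vegfc and Flt1, which lay at background, and Kdr, whose empty vector signals were 16.8 and 12.6 units.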

Other observations

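Among pathway genes that the naming rule does not cover, chosen here after their values were seen, several vascular factors differed by about as much as Vegfd, or more, without passing in limma. Angptl4, which encodes a secreted lipase inhibitor and is a known hypoxia target, had -5.08 and -4.79 with the MAX vector, against -2.88 and -3.39 with the empty vector (log2 fold change -1.80 ± 0.22, adjusted p = 0.076 in limma). Adm, which encodes the vasodilator peptide adrenomedullin, had -0.74 ± 0.09 (adjusted p = 0.0727), and Ptn, which encodes the growth factor pleiotrophin, had -1.01 ± 0.15 (adjusted p = 0.104). On the other side, Jag1, a Notch ligand gene, had 3.27 and 3.19 with the MAX vector, against 2.03 and 2.21 with the empty vector (1.11 ± 0.11, adjusted p = 0.0551). Eng, which encodes the TGF-β co-receptor endoglin, had 0.80 ± 0.19 (adjusted p = 0.196). For each of these genes both arrays of one group lay beyond both arrays of the other, as was the case for 50.3% of all genes tested.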
